A study of Mus musculus with 7 samples.

Results

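The 34 genes described here encode glutamate receptors and the scaffold proteins that hold them at the postsynaptic side of excitatory synapses. They were chosen by symbol, from family membership, with earlier results of these data known. All 34 were found among the 48526 Ensembl genes of the deposited brain table. They comprise 4 AMPA receptor genes (Gria1 to Gria4), 7 NMDA receptor genes (Grin1, Grin2a to Grin2d, Grin3a and Grin3b), 5 kainate receptor genes with the delta receptor gene Grid1, 6 metabotropic receptor genes (Grm2, Grm3, Grm4, Grm5, Grm7 and Grm8) and 11 scaffold genes (Dlg1 to Dlg4, Shank1 to Shank3, Homer1 to Homer3 and Dlgap1). RNA was sequenced from brains of mice aged 24 months, all labelled V1SSV2 and DT Venus: 4 libraries labelled on, which carry the label Glucose, and 3 labelled off, which carry the label Dox. V1S and SV2 denote α-synuclein joined to complementary parts of the fluorescent protein Venus, and Dox is doxycycline, so the state of the constructs and the drug change together and cannot be told apart. Not given in the sources used here are the promoter that drives the constructs, the brain region and whether each library is a separate animal; p-values thus reflect the spread among libraries, which may be technical.

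Glutamate is the main excitatory transmitter of the brain. AMPA receptors carry most of the fast current at excitatory synapses, NMDA receptors admit calcium when transmitter release and depolarization coincide and trigger lasting changes in synaptic strength, kainate receptors act on both sides of the synapse, and metabotropic receptors signal through G proteins. At the postsynaptic density, the Dlg proteins bind receptor tails through PDZ domains, Dlgap1 links Dlg proteins to Shank proteins, and Homer proteins link Shank proteins to metabotropic receptors. α-Synuclein itself is concentrated in presynaptic terminals.

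The families arose by gene duplication, so their members were first compared in sequence, because reads from a stretch that 2 genes share cannot be assigned to either. Coding sequences were taken from GENCODE M21 on GRCm38, with only the longest coding sequence of each gene used. The conserved 9-codon stretch at the end of membrane segment M3, a hallmark of ionotropic glutamate receptors, was encoded by 15 of the 17 ionotropic genes (not by Grin3a or Grin3b) with 14 distinct runs of 27 bases. It is shown for 5 genes that stand for the 4 ionotropic families, with capitals at the bases that differ from Gria2.
Gria2: tcctacacggctaacttagctgccttc
Gria3: tcctacacTgcAaacCtTgctgcTttc
Grin1: tcctacacTgcCaacCtGgcAgccttc
Grik3: tcctacacggcCaacCtGgctgccttc
Grid1: tcctacacAgcCaacCtGgcCgcTttc
This stretch differed from Gria2 by 3 to 8 of its 27 bases in the other genes.

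The longest run shared by the coding sequences of any 2 of the 34 genes was 56 bases, in Gria2 and Gria3, and the next was 38 bases, in Grik3 and Grik5, which spans the stretch above (capitals). Both are shown because they are the longest places in these coding sequences where family members cannot be told apart. Sequence outside the coding part and other coding forms of a gene were not searched for such runs.
Gria2 and Gria3: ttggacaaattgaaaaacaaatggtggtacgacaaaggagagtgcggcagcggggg
Grik3 and Grik5: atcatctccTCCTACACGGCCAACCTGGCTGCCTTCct
Of the 34 genes, 23 had no 50-base stretch in common with any other of the 34, and the most that any had was 23 such stretches. Under 1% of the 50-base stretches were shared with other genes on the same strand in 31 of the 34. The largest share, 11.6% of the stretches of Grin2a, was shared most with the processed pseudogene Gm7328 (GRCm38 chromosome 8, 56952829 to 56955053), which is listed at -1.64 in all 7 libraries. How reads that fit both copies were counted is unknown here, and the value of Grin2a carries that uncertainty. Exons of a gene on the opposite strand overlap 32.1% of the exon bases of Grin3b (Tmem259), 25.4% of Homer3 (Ddx49), 13.5% of Grin1 (Grin1os), 9.66% of Grin2d (Gm45441) and 9.60% of Grm2 (Gm28111). Whether reads were counted by strand is unknown here, and these 5 genes carry that uncertainty.

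All 34 genes passed the minimum mean of 3 that was set for testing. Values are rlog values (regularized logarithms, in log2 units), so that a difference of 1 is a doubling. Depth per library is unknown, and rlog shrinkage understates the differences of low genes. Gene means over the 7 libraries ran between 5.14 (Grin3b) and 14.76 (Gria2), and 33 of the 34 genes lay above 9. Since longer transcripts give more reads, levels were compared between genes only after subtraction of the log2 of the summed exon length in kb.

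On this level per kb of exon, Gria1 stood highest, at 11.52 ± 0.06 in on libraries (SD, n = 4) and 11.47 ± 0.03 in off libraries (SD, n = 3). It was followed by Gria2, at 10.84 ± 0.09 in on and 10.74 ± 0.07 in off, and by Grin1, the subunit that every NMDA receptor contains, at 10.58 ± 0.04 in on and 10.59 ± 0.08 in off. Dlg4, which encodes PSD-95, the best known scaffold of the postsynaptic density, came next at 10.35 ± 0.08 in on and 10.40 ± 0.12 in off, with Gria4 at 10.39 ± 0.04 in on and 10.30 ± 0.07 in off. Dlg4 and Gria4 did not differ beyond their spread. Of the 33 steps between neighbours in this order, 15 were smaller than the SD over the 7 libraries, among them those between Grin2c, Shank3, Dlg1 and Grm5 and those between Shank2, Grin2b, Homer3, Grm4, Grm3, Homer1 and Grik3.

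The least abundant genes per kb were Grin3b, at 3.40 ± 0.05 in on and 3.44 ± 0.07 in off, Grm8, at 6.15 ± 0.03 in on and 6.19 ± 0.04 in off, and Grin2d, at 6.83 ± 0.03 in on and 6.91 ± 0.12 in off. The step of 2.75 between Grm8 and Grin3b was the widest in the order. Among the NMDA subunits the order per kb was Grin1, Grin2c, Grin2b, Grin2a, Grin3a, Grin2d and Grin3b. Grin2c encodes a subunit known from cerebellar granule cells, and markers of those cells were present in every library: Gabra6 lay between 11.83 and 12.19 in on and between 11.66 and 11.96 in off. Among kainate genes Grik5 was highest (9.92 in on, 10.03 in off) and Grik1 lowest (6.91 in on, 6.86 in off), and among metabotropic genes Grm5 was highest (9.50 in on, 9.45 in off).

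The order depends on the length that is used. With coding length in place of exon length, Gria2 came first, Dlg4 next and then Gria1. Genes whose summed exons far exceed their coding bases moved up: Grin2b to rank 8, against 17 per kb of exon, Homer1 to rank 7, against 21, and Homer2 to rank 13, against 28. Grin2c moved down to rank 24, against 12, which is below Grin2b (rank 8) and Grin2a (rank 19). With the longest transcript as the length, Grin1 came first, then Gria1, Dlg4 and Gria2. Levels by exon length and by coding length had a Spearman rho of 0.82 across the 34 genes, which share libraries and are not independent.

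**Figure D1:**
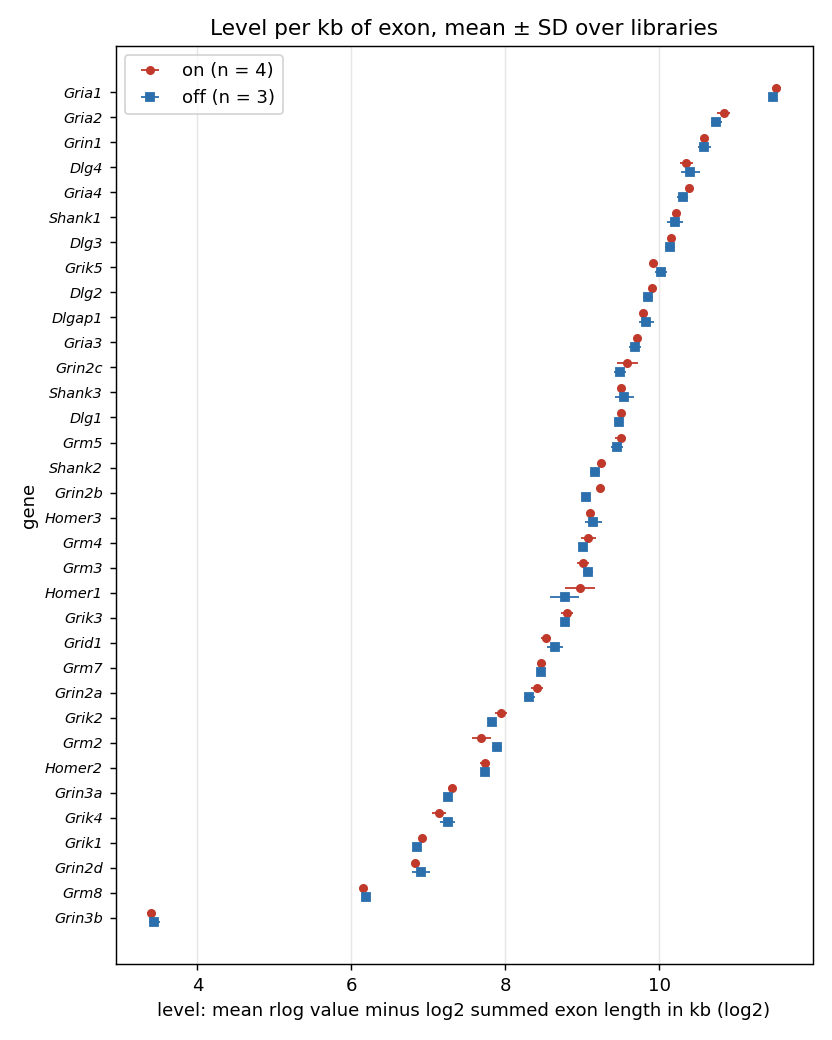
Level of each of the 34 genes, as the mean rlog value minus log2 of summed exon length in kb (x axis, log2), in on libraries (red circles, n = 4) and off libraries (blue squares, n = 3), with SD bars. On and off levels nearly coincide for most genes, and the order runs from Gria1 at 11.52 in on to Grin3b at 3.40 in on.

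The comparison between on and off asks whether these synaptic genes differ between brains labelled on and brains labelled off for the constructs. Of the 34 genes, 1 passed the threshold of an adjusted p under 0.05, in a limma fit over 17896 tested genes: Grin2b, which rose in on. That is 2.94% of the genes, where 2.60% of all tested genes were called in either direction and 0.816% were called higher. The median difference, on minus off, was 0.02 over the 34 genes and 0.0029 over all tested genes, with 20 genes positive and 14 negative. Differences were under 0.1 in size in 26 of the 34 genes. The 95% interval lay within 0.25 of 0 in 31 of them, and over all 34 the intervals reached no lower than -0.34 (Grm2) and no higher than 0.39 (Homer1).

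The groups were free of overlap in 2 of the 34 genes (5.88%), Grin2b and Grik1, both with on above off, and in 0 genes did on lie below off. Over all tested genes the shares were 7.13% with on above off and 8.09% with on below off. The mean deviation of the 34 genes from their own means was -0.0102, -0.0016, 0.0187 and 0.0146 in on replicates 1 to 4, against -0.0410, 0.0292 and -0.0098 in off replicates 1 to 3. The off libraries therefore span a wider range than the on libraries, and the groups overlap. In these bulk brain samples, fewer cells that express a gene and less of its RNA per cell cannot be told apart.

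**Figure D2:**
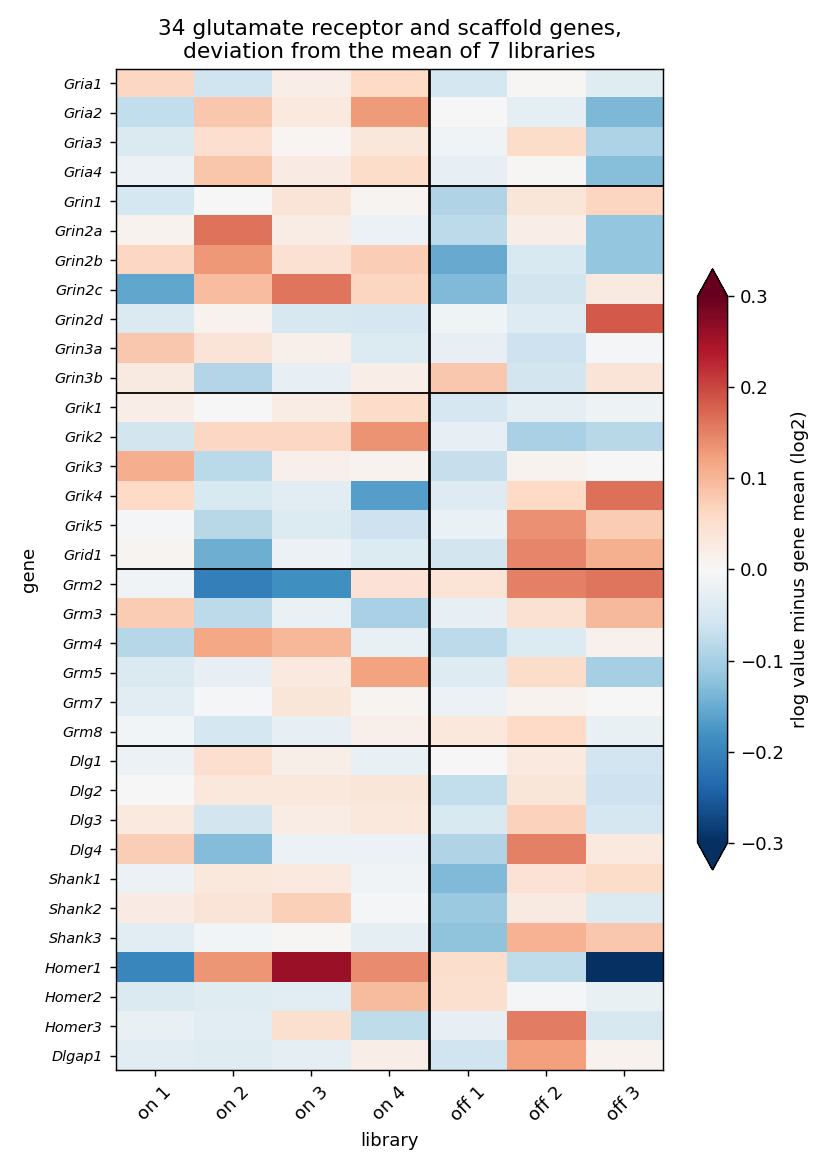
Deviation of each gene (rows, grouped as AMPA, NMDA, kainate and delta, metabotropic and scaffold genes) from its mean over the 7 libraries (columns, on left of the vertical line and off right of it), in rlog units on the log2 scale, with colours ending at 0.3 either way. Most cells are pale, Grin2b is the row with all on libraries above all off libraries by the widest margin, and Homer1 varies most within both groups.

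AMPA receptors are tetramers of the 4 subunits encoded by Gria1 to Gria4, and Gria2 sets their calcium permeability. Gria1 had values of 14.16, 14.04, 14.12 and 14.16 in on, against 14.05, 14.10 and 14.06 in off, a difference of 0.05 ± 0.04 (SE, adjusted p = 0.523). Gria2 had values of 14.68, 14.84, 14.78 and 14.88 in on, against 14.76, 14.73 and 14.62 in off, a difference of 0.10 ± 0.05 (SE, adjusted p = 0.307). In both genes the groups overlap, in Gria2 through on replicate 1. Gria3 and Gria4 differed by 0.03 ± 0.04 and 0.09 ± 0.04 (SE). All 4 differences were positive, none passed, and the intervals ran between -0.06 and 0.21.

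NMDA receptors join Grin1 with Grin2 or Grin3 subunits, and the Grin2 subunit sets the kinetics of the channel. Grin1 had values of 13.81, 13.86, 13.90 and 13.87 in on, against 13.77, 13.90 and 13.93 in off, a difference of -0.0061 ± 0.0434 (SE, adjusted p = 0.956), so that its mean was close to the same in both groups. Grin2b encodes the subunit with slow kinetics that predominates early in life and persists in the adult forebrain. It had values of 13.85, 13.92, 13.84 and 13.86 in on, against 13.64, 13.74 and 13.67 in off. Every on library lay above every off library, and Grin2b rose by 0.18 ± 0.04 (SE, adjusted p = 0.0305), which is a fold of 1.13 with a 95% interval of 0.10 to 0.27 on the log2 scale.

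The call of Grin2b depended on the libraries and the processing. After correction for the trends of each library with GC content and transcript length, described further on, its difference was -0.02 ± 0.04 (SE, adjusted p = 0.866), and with the replicate number as a block as well it was -0.012 (adjusted p = 0.945). Without the correction, its difference lay between 0.16 and 0.21 with any library left out, and its adjusted p was 0.0061 when on replicate 1 was omitted. When on replicate 2, 3 or 4 was omitted it was 0.081, 0.098 and 0.098 in turn, and when off replicate 1, 2 or 3 was omitted it was 0.082, 0.071 and 0.101 in turn. It also missed the threshold with no filter on low values (0.162), without the intensity trend (0.0537) and in a fit with the replicate number as a block (0.204). On replicate 4 has no off library of its number, so it adds nothing to the difference in that fit. The difference of Grin2b was 0.183 with the block and 0.183 without on replicate 4.

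Grin2a encodes the subunit with faster kinetics that increases as the brain matures. It had values of 12.55, 12.70, 12.56 and 12.52 in on, against 12.46, 12.55 and 12.42 in off. On replicate 4 fell below off replicate 2, and the difference of 0.10 ± 0.05 (SE, adjusted p = 0.236) did not pass. Grin2c had values of 11.72, 11.97, 12.04 and 11.94 in on, against 11.74, 11.82 and 11.90 in off. On replicates 2 to 4 lay above all off libraries and on replicate 1 lay below them, and the difference was 0.09 ± 0.06 (SE, adjusted p = 0.421). Grin2d (-0.08 ± 0.05), Grin3a (0.05 ± 0.04) and Grin3b (-0.04 ± 0.05, SE) did not pass.

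**Figure D3:**
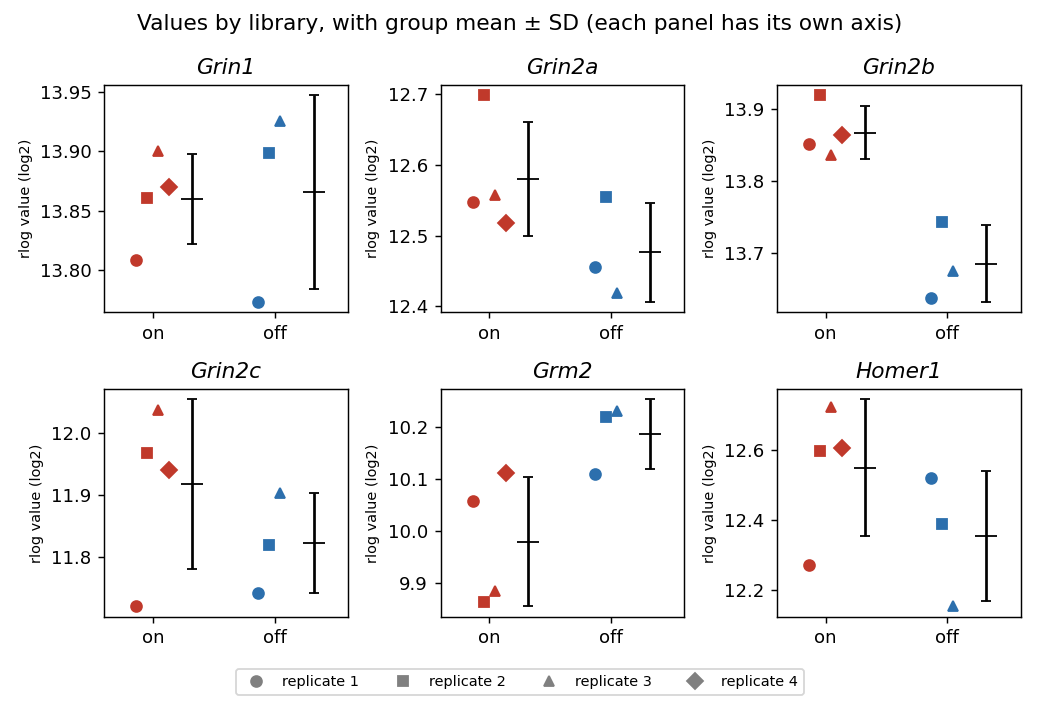
Values of 6 genes by library (y axes, rlog on the log2 scale, a separate axis in each panel), on in red left of off in blue, with a symbol for each replicate number and the group mean ± SD in black (n = 4 on, 3 off). Grin2b shows no overlap between groups, Grin1 full overlap, and in Grin2c and Homer1 on replicate 1 lies apart below the other on libraries.

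Kainate receptors combine Grik1, Grik2 or Grik3 with the high-affinity subunits Grik4 and Grik5, and Grid1 encodes a delta receptor that organizes synapses. Grik1 had values of 9.66, 9.64, 9.66 and 9.69 in on, against 9.59, 9.61 and 9.62 in off. The groups did not overlap, but the gap was small, and the difference was 0.06 ± 0.04 (SE, adjusted p = 0.476). Grik2 had values of 11.56, 11.68, 11.68 and 11.75 in on, against 11.59, 11.52 and 11.53 in off, with a difference of 0.12 ± 0.04 (SE, adjusted p = 0.155). Only on replicate 1 lay within the off range.

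Grik5 had values of 12.33, 12.25, 12.29 and 12.27 in on, against 12.31, 12.47 and 12.41 in off, a difference of -0.11 ± 0.04 (SE, adjusted p = 0.148). Grid1 had values of 11.17, 11.01, 11.14 and 11.12 in on, against 11.10, 11.30 and 11.27 in off, a difference of -0.12 ± 0.05 (SE, adjusted p = 0.223). In both genes off replicate 1 lay among the on libraries and the other 2 off libraries lay above all on libraries. Grik3 (0.03 ± 0.04) and Grik4 (-0.11 ± 0.06, SE) did not pass, so the family held 3 positive and 3 negative differences.

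Metabotropic receptors were represented by the group II genes Grm2 and Grm3, whose products restrain transmitter release, the group I gene Grm5, a postsynaptic receptor bound by Homer proteins, and the group III genes Grm4, Grm7 and Grm8, which encode presynaptic receptors. Grm2 had the most negative difference of the 34 genes. Its values were 10.06, 9.86, 9.88 and 10.11 in on, against 10.11, 10.22 and 10.23 in off, a difference of -0.21 ± 0.06 (SE, adjusted p = 0.0851). On replicates 2 and 3 were the lowest libraries, and on replicate 4 met off replicate 1.

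Markers of the olfactory bulb, a list of 8 genes, ran in the same libraries: their mean deviation was -0.115, -0.199, -0.224 and -0.0014 in on replicates 1 to 4, against 0.194, 0.167 and 0.179 in off replicates 1 to 3, and 5 of the 8 were called lower. Over all tested genes, 320 of 17896 were called lower. The part of bulb tissue in the Grm2 difference was not tested. Grm5 had values of 12.79, 12.81, 12.87 and 12.96 in on, against 12.80, 12.89 and 12.74 in off, a difference of 0.05 ± 0.05 (SE, adjusted p = 0.609). Grm7 was the most even of the metabotropic genes, at 11.03 ± 0.03 in on (SD, n = 4) and 11.02 ± 0.015 in off (SD, n = 3). Grm3 (-0.07 ± 0.05), Grm4 (0.06 ± 0.05) and Grm8 (-0.04 ± 0.04, SE) did not pass.

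Among the scaffolds, the 4 Dlg genes encode the membrane-associated guanylate kinases SAP97 (Dlg1), PSD-93 (Dlg2), SAP102 (Dlg3) and PSD-95 (Dlg4). Dlg1 had values of 12.90, 12.97, 12.94 and 12.89 in on, against 12.92, 12.95 and 12.86 in off, a difference of 0.02 ± 0.04 (SE, adjusted p = 0.844). Dlg4 had values of 14.18, 13.97, 14.08 and 14.09 in on, against 14.01, 14.25 and 14.13 in off, a difference of -0.05 ± 0.06 (SE, adjusted p = 0.634). The groups overlap in both genes, with an interval for Dlg4 of -0.18 to 0.07. Dlg2 and Dlg3 differed by 0.06 ± 0.04 and 0.02 ± 0.04 (SE).

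Shank proteins form the deeper layer of the postsynaptic density. Shank1 had values of 13.59, 13.64, 13.64 and 13.60 in on, against 13.48, 13.65 and 13.66 in off, and Shank3 had values of 12.69, 12.72, 12.73 and 12.70 in on, against 12.60, 12.83 and 12.81 in off. In both genes the on libraries lay close together, inside the wider range of the off libraries. Shank1 differed by 0.02 ± 0.05, Shank2 by 0.07 ± 0.04, Shank3 by -0.04 ± 0.05 and Dlgap1 by -0.04 ± 0.04 (SE), and none passed.

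Homer1 was the most variable of the 34 genes within groups. It gives rise to long forms that cross-link Shank proteins and group I metabotropic receptors and to a short form induced by neuronal activity, and values per gene do not separate these forms. Its values were 12.27, 12.60, 12.72 and 12.61 in on, against 12.52, 12.39 and 12.15 in off, a difference of 0.20 ± 0.09 (SE, adjusted p = 0.247). On replicate 1 lay between off replicates 2 and 3, and the other on libraries lay above all off libraries. The within-group SD of Homer1 was 0.191, where the median over the 34 genes was 0.0636 and that over all tested genes 0.0592. Homer2 (-0.01 ± 0.04) and Homer3 (-0.05 ± 0.05, SE) did not pass.

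The balance between subunits of a family was compared within each library as a log2 ratio of 2 genes, which does not depend on scaling between libraries. In total 17 pairs were compared with exact two-sided permutation tests over the 35 groupings of the libraries, for which the smallest possible p is 0.0571, so no pair could pass. Groups did not overlap in 2 of the 17 pairs, where for a single pair 0.0571 of the groupings are free of overlap. Several pairs reuse the same gene, so no excess can be read from this count. Grin2b relative to Grin1 was 0.04, 0.06, -0.06 and -0.01 in on, against -0.14, -0.16 and -0.25 in off, a difference of 0.19 (exact permutation p = 0.0571, adjusted p = 0.278 over the 17 pairs). Shank3 relative to Shank1 was -0.90, -0.92, -0.91 and -0.90 in on, against -0.87, -0.82 and -0.86 in off, a difference of -0.06 (exact permutation p = 0.0571, adjusted p = 0.278 over the 17 pairs). After the GC and length correction the groups overlapped in both pairs, with differences of -0.06 for Grin2b to Grin1 and -0.0135 for Shank3 to Shank1. Gria4 relative to Gria2 overlapped before the correction, with a difference of -0.01. After it, on lay above off in that pair, with a difference of 0.078 (exact permutation p = 0.0571).

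Grin2a relative to Grin2b, a ratio followed as a sign of receptor maturation, was -1.30, -1.22, -1.28 and -1.35 in on, against -1.18, -1.19 and -1.26 in off. The groups overlapped and the difference was -0.08 (exact permutation p = 0.114). Gria1 relative to Gria2 differed by -0.05 (exact permutation p = 0.571) and Gria3 relative to Gria2 by -0.07 (exact permutation p = 0.114). Over the 17 pairs the widest differences were those of Homer3 to Homer1 (-0.24), Grik4 to Grik2 (-0.23) and Homer2 to Homer1 (-0.21), with exact permutation p of 0.114, 0.114 and 0.229.

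Transcript length is a feature that the 34 genes share and that the choice of genes did not use. Their longest annotated transcripts had a median of 5716.5 bases, against 3158 bases for all tested genes, and 22 of the 34 fell in the longest 20% of tested genes. Grin2b has the longest of the 34, 24060 bases on the minus strand of GRCm38 chromosome 6 (135713233 to 136173511), of which 4446 are coding, and is longer than 99.9% of the tested genes that have a length. Grin2a, at 14634 bases, is next.

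In these libraries deviations from gene means ran with transcript length across all tested genes. Spearman's rho across genes was -0.0589, 0.291, 0.287 and 0.274 in on replicates 1 to 4, against -0.316, -0.233 and -0.246 in off replicates 1 to 3. In the longest 20% of tested genes 3.20% were called higher in on and on lay above off without overlap in 19.0%. Of the 22 members in that class, 1 was called higher (4.55%) and 1 had on above off without overlap (4.55%). Their median difference was 0.04, against 0.06 for all genes of that class. Across the 34 genes, the difference between on and off had a Spearman rho of 0.454 with transcript length and of -0.444 with GC content, as a description over genes that share libraries.

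**Figure D4:**
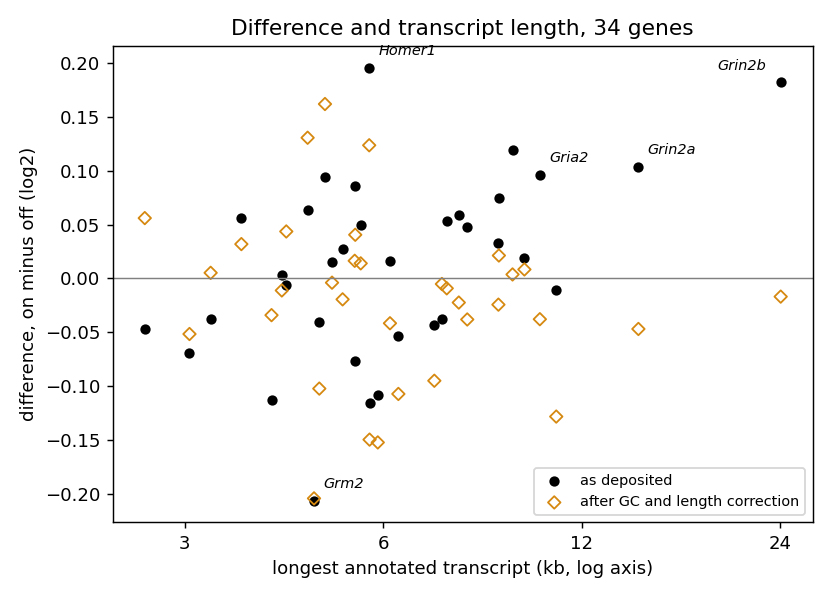
Difference between on and off of each of the 34 genes (y axis, log2) against its longest annotated transcript (x axis, kb, log axis), as deposited (black) and after removal of the GC and length trends of each library (orange diamonds). Grin2b, the longest at 24060 bases, lay at 0.18 as deposited and at -0.02 after the correction, while Grm2 lay at -0.21 and -0.20.

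After correction for the smooth trends of each library with GC and length, 0 of the 34 genes passed with limma, where 0.587% of all tested genes did, and 8 of the 34 had an unadjusted p under 0.05, as did 16.8% of all tested genes. The sign turned in 15 of the 34 genes, Gria2, Gria3, Grin1, Grin2a, Grin2b, Grin2d and Dlg1 to Dlg3 among them, each with a corrected difference under 0.06 in size. Grm2 kept its difference at -0.20 ± 0.05 (SE, adjusted p = 0.106), and the next largest corrected differences were those of Grin2c (0.16 ± 0.06), Grik4 (-0.15 ± 0.06), Grid1 (-0.15 ± 0.05), Grm4 (0.13 ± 0.05), Homer2 (-0.13 ± 0.04) and Homer1 (0.12 ± 0.08, SE). A change that falls on long genes and a trend of the libraries with length cannot be told apart, since all libraries but on replicate 1 show a trend whose sign goes with their group.

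**Figure D5:**
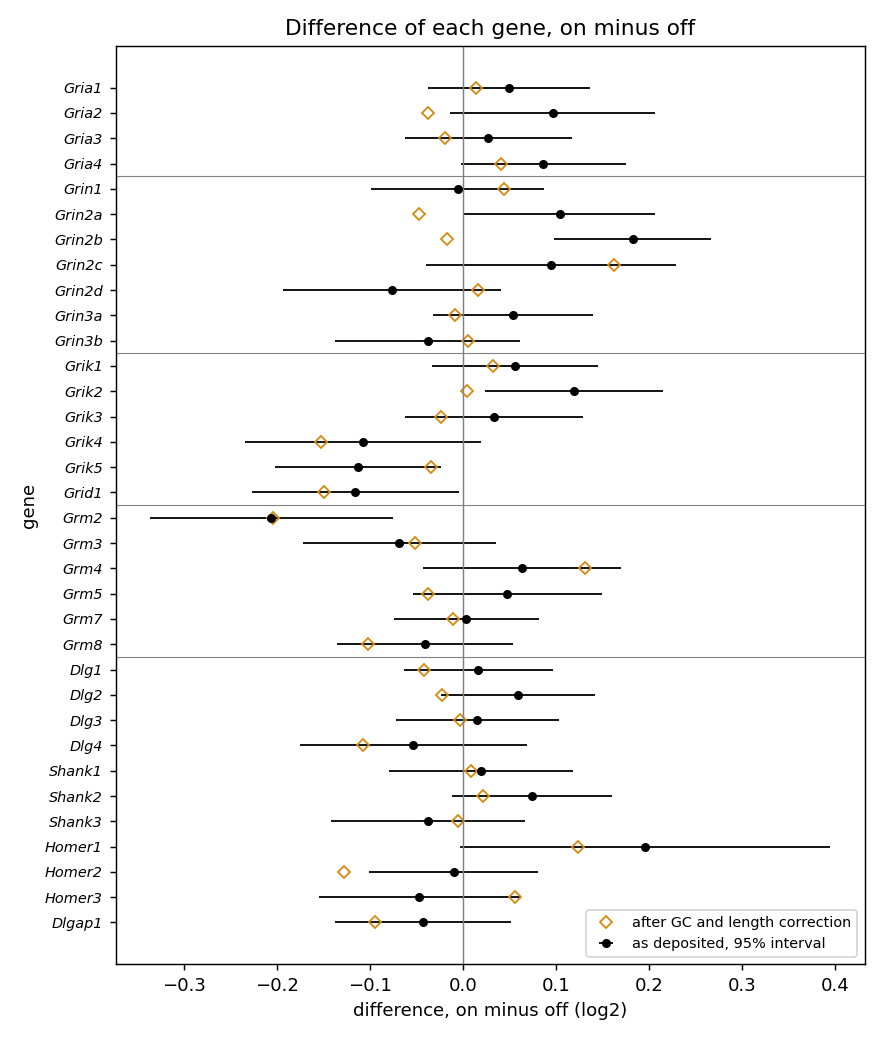
Difference between on and off (x axis, log2) of each of the 34 genes, as deposited with its 95% interval (black) and after the GC and length correction (orange diamonds), grouped by family with grey lines. The interval of Grin2b, 0.10 to 0.27, has the lower end that lies furthest above 0 and does not cover its corrected value of -0.02.

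On replicate 1 stood nearest to the off libraries. It lay within the off range in 23 of the 34 genes, against 10, 15 and 18 for on replicates 2, 3 and 4. Without it, 6 of the 34 genes passed with limma (17.6%), where 16.3% of all tested genes did. Grin2b (0.19), Grin2c (0.16), Grik2 (0.15) and Homer1 (0.29) rose, and Grik5 (-0.13) and Grm2 (-0.23) fell. With array weights 4 of the 34 passed (11.8%), Grin2b, Grik2, Grm2 and Homer1, where 12.4% of all tested genes did. In both cases the share among the 34 genes was near that of all tested genes.

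With the correction applied and on replicate 1 left out, a combination chosen after the data were seen, 7 of the 34 passed (20.6%), where 10.0% of all tested genes did. Grin2c (0.23 ± 0.03), Grm4 (0.17 ± 0.04) and Homer1 (0.19 ± 0.06, SE) were higher in on, and Grm2 (-0.23 ± 0.05), Grik4 (-0.19 ± 0.05), Grid1 (-0.18 ± 0.05) and Homer2 (-0.14 ± 0.04, SE) were lower. Grin2c and Grm4 are known from cerebellar granule cells. Before the correction, the mean deviation of 8 cerebellar markers was -0.074, 0.109, 0.086 and -0.021 in on replicates 1 to 4, against 0.042, -0.015 and -0.126 in off replicates 1 to 3. In on replicate 1 Grin2c (11.72) and Grm4 (11.54) were at their lowest. In off replicate 3 both genes (11.90 and 11.64) were at their highest among the off libraries. In the fit of all 7 libraries 0 of the 8 markers were called with limma, before or after the correction. Without on replicate 1 and without the correction, 2 were called higher and 0 lower, where 1481 of 17896 tested genes were called higher. With the correction and without on replicate 1, 4 were called higher and 0 lower. In that combination 982 of all tested genes were called higher and 811 lower. The part of cerebellar tissue in these values was not tested.

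Other genes of the pathway were taken from lists of 14 auxiliary subunits, 27 further postsynaptic density genes and 11 genes of glutamate supply and uptake. Over all 17896 tested genes, 146 (0.816%) were called higher and 320 lower. Of the auxiliary subunits, which control the trafficking and gating of AMPA and kainate receptors, 0 were called higher and 1 lower, with a median of -0.04. That gene was Cnih2, a cornichon protein that escorts AMPA receptors to the surface and slows their closing. It had values of 11.63, 11.61, 11.53 and 11.56 in on, against 11.85, 11.96 and 11.89 in off, and fell by 0.32 ± 0.04 (SE, adjusted p = 0.0017). All on libraries lay below all off libraries, and Cnih2 passed with any library left out (adjusted p up to 0.0233), with a corrected difference of -0.145 ± 0.035 (SE, adjusted p = 0.0845). Cnih3 differed by -0.18 ± 0.05 and Shisa7 by 0.13 ± 0.04 (SE), and neither passed.

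Of the 27 further postsynaptic density genes, 0 were called higher and 1 lower, with a median of 0.0072. Over all 17896 tested genes, those counts were 146 and 320. Begain, which binds the guanylate kinase domain of PSD-95, had values of 11.71, 11.69, 11.63 and 11.68 in on, against 11.79, 11.86 and 11.90 in off, and fell by 0.17 ± 0.04 (SE, adjusted p = 0.0348). Its groups did not overlap, but with a library left out it passed in 2 of 7 fits, without on replicate 1 (adjusted p = 0.0060) and without off replicate 1 (adjusted p = 0.034). In the other 5 fits the adjusted p lay between 0.0686 and 0.167. Begain differed by -0.05 after the correction. Tanc2 (0.15 ± 0.04), Nrgn (-0.23 ± 0.06), Slc38a1 (0.12 ± 0.04), Slc17a7 (-0.12 ± 0.05) and Slc1a2 (0.10 ± 0.05, SE) did not pass, and 0 of the 11 genes of glutamate supply and uptake did with limma (2 at an unadjusted p under 0.05, a limit that 20.7% of all tested genes met).

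Neuronal and glial markers were present in every library, as the label brain implies: Rbfox3 lay between 12.90 and 12.96 in on and between 12.94 and 13.07 in off, and Aqp4 between 13.19 and 13.35 in on and between 13.22 and 13.30 in off. Of 8 pan-neuronal and 8 forebrain excitatory neuron markers, 0 were called with limma (1 and 3 at an unadjusted p under 0.05), with medians of -0.05 and -0.04. The mean deviation of the forebrain excitatory list was -0.054, -0.010, 0.018 and -0.013 in on replicates 1 to 4, against -0.038, 0.130 and -0.032 in off replicates 1 to 3. Off replicate 2 was the highest library for that list and also for the scaffold genes, whose mean deviation there was 0.060. The same library was highest for the pan-neuronal (0.079), GABAergic (0.144), striatal (0.222) and microglia (0.132) lists. For the cerebellar, olfactory bulb, astrocyte, oligodendrocyte, oligodendrocyte precursor, endothelial and nuclear RNA lists another library was highest. In the nuclear RNA list, a sign of RNA composition, 2 of 8 genes were called higher, with a mean deviation of -0.125 in on replicate 1, of 0.160 to 0.217 in the other on libraries and of -0.282 to -0.063 in off libraries. The part of these shifts in the values of the receptor and scaffold genes was not tested.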

How the data were processed

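Per the labels' protocols, total RNA came from the Qiagen miRNeasy procedure, DNase-treated on the column, and library preparation used TruSeq Stranded mRNA reagents (Illumina). The submitters' processing notes list DESeq2 1.16.1, STAR 2.5.2, cutadapt 1.9.1, Subread 1.5.3, BWA 0.7.14-r1136 and the build GRCm38, with no roles given. The values the authors deposited are regularized logarithms on the log2 scale, which shrink low genes; counts were not used here, so depth and counting error are unknown. Per-gene differences were fitted with limma 3.58.1 (R 4.3.3) over the 17896 genes with a mean of 3 or more, with a group term, an intensity trend and Benjamini-Hochberg adjustment at 0.05. The correction (mgcv 1.9.3) removed smooth trends with GC content and longest transcript in 3 classes of mean value; 99.6% of tested genes had both properties. Annotation was GENCODE M21, which held 99.2% of the gene identifiers. The limma fit was tested on simulated data with independent noise for each gene. The correction was tested on the same data with a length trend added to all on libraries. Neither simulation held trends that differ between libraries of the same group. Members, lists and the rule for named genes (all members; of other pathway genes, those past the threshold and the 3 with the smallest p of each list) were chosen with earlier results of these data known. Same-numbered on and off libraries did not deviate together.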

Additional observations from a re-analysis of the deposited data

Results flagged for a closer look

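In 6 of 57 groups of 4 on libraries, a single library stood apart from the other on libraries by the Dixon criterion, where chance gives about 1 in 20 groups, or 2.85 of 57. The groups are not independent, since all hold the same 4 libraries and ratios reuse the values of single genes, so no excess can be read from these counts. Grin2d was 9.6074 in on replicate 2, against 9.547 to 9.5535 in the other on libraries. Dlg2 was 13.912 in on replicate 1, against 13.944 to 13.948. Dlg3 was 12.64 in on replicate 2, against 12.718 to 12.726. Homer2 was 11.49 in on replicate 4, against 11.351 to 11.363. Dlgap1 was 13.991 in on replicate 4, against 13.936 to 13.944. The log2 ratio of Homer3 to Homer1 was -1.3913 in on replicate 1, against -1.7812 to -1.7285 in the other on libraries. The groups of 3 off libraries were not tested.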

How the results depend on the processing

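The number of receptor and scaffold genes past the threshold, 1 in the fit reported, was 0 with no filter on low values, 0 without the intensity trend, 0 with the replicate number as a block, 0 with the GC and length correction, 0 with that correction and the block, 4 with array weights, 2 at a threshold of 0.1 and 7 with the correction and without on replicate 1 (chosen after seeing the data). Over all tested genes, where 466 passed, the numbers in the same order were 7, 237, 30, 105, 2, 2215, 1182 and 1793. With each library left out in turn, they ran between 0 and 6 for the receptor and scaffold genes and between 43 and 2917 for all tested genes. A minimum mean of 5, median centring, quantile normalization and a robust prior kept the number for the receptor and scaffold genes at 1. Same-numbered libraries did not deviate together (correlations -0.228, -0.10 and 0.018, and 0 of 3 on libraries correlated best with their own number), so the block says nothing of weaker effects. On replicate 4 has no off library of its number and adds nothing to the differences in fits with the block.

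The GC and length correction turned the sign of Gria2 (-0.038), Gria3 (-0.019), Grin1 (0.044), Grin2a (-0.047), Grin2b (-0.017), Grin2d (0.016), Grin3a (-0.0092), Grin3b (0.0052), Grik3 (-0.024), Grm5 (-0.038), Grm7 (-0.011), Dlg1 (-0.042), Dlg2 (-0.022), Dlg3 (-0.0040) and Homer3 (0.056) and of the ratios Grin2c to Grin2b (0.179), Grin2a to Grin1 (-0.091), Grin2b to Grin1 (-0.061), Gria1 to Gria2 (0.052), Gria3 to Gria2 (0.018) and Gria4 to Gria2 (0.078). With the block as well, the sign turned in Gria2 (-0.058), Gria3 (-0.023), Grin1 (0.039), Grin2a (-0.023), Grin2b (-0.012), Grin2d (0.024), Grik2 (-0.017), Grik3 (-0.025), Grm5 (-0.068), Grm7 (-0.014), Dlg1 (-0.029), Dlg2 (-0.023), Dlg3 (-0.013) and Homer3 (0.071). The difference of Grin1 turned to 0.00047 with median centring and to 0.0095 with array weights. Leaving out single libraries turned the sign of Gria3 (-0.011 to 0.063), Grin1 (-0.052 to 0.024), Grm7 (-0.0078 to 0.015), Dlg1 (-0.0075 to 0.035), Dlg3 (-0.0055 to 0.055), Dlg4 (-0.113 to 0.0069), Shank1 (-0.042 to 0.052), Shank3 (-0.109 to 0.0037), Homer2 (-0.044 to 0.011), Homer3 (-0.084 to 0.016), Dlgap1 (-0.085 to 0.0064) and Gria4 to Gria2 (-0.030 to 0.013), given as ranges over the 7 fits. The cause was not tested in any of these. Depth is unknown, so no limit from counting can be given, and the number of libraries limits the precision.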

Other observations

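Counts of markers at an unadjusted p under 0.05 are to be read against 20.7% of all tested genes. Counts called higher or lower are to be read against 146 and 320 of the 17896 tested genes. Of 7 GABAergic neuron markers, 0 were called higher and 2 lower, with a median difference of -0.11, and their mean deviation was between -0.112 and -0.0074 in on libraries and between 0.032 and 0.144 in off libraries. Of 8 striatal projection neuron markers, 0 were called with limma (5 at an unadjusted p under 0.05), but all 8 differences were negative, with a median of -0.15. Their mean deviation lay between -0.138 and -0.018 in on libraries, against 0.0068, 0.222 and 0.019 in off replicates 1 to 3, so that off replicate 2 stood apart. Of 6 endothelial markers 0 were called with limma (2 at an unadjusted p under 0.05), with a mean deviation of -0.225 in on replicate 1 and of 0.090 to 0.143 in the other on libraries, against -0.218 to 0.048 in off libraries.
Of 6 oligodendrocyte precursor markers 0 were called higher and 2 lower. Of the 8 astrocyte, 8 oligodendrocyte and 8 microglia markers, 0 were called with limma (0, 0 and 3 at an unadjusted p under 0.05), with medians of 0.0094, -0.05 and -0.09.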
